A study of Mus musculus with 6 samples.

Results

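The 36 aminoacyl-tRNA synthetase genes were taken by symbol from a set list, 20 for enzymes of the cytosol and 16 for enzymes of mitochondria. All 36 were among the 23420 genes of the deposited expression values. All 36 also reached a normalized count of at least 10 in at least 3 libraries, the level set for testing a gene. No measured value entered the choice of members, and the compartments are given apart.

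Each synthetase joins an amino acid to the tRNAs that read its codons, and so makes the charged tRNA that ribosomes use. Mitochondria have their own ribosomes and import a separate set of synthetases, encoded in the nucleus mostly by genes whose symbols end in 2, while Gars and Kars each encode both a cytosolic and a mitochondrial form. Several cytosolic synthetases sit together in the multisynthetase complex, held by the scaffold proteins that Aimp1, Aimp2 and Eef1e1 encode. When tRNAs stay uncharged, the kinase GCN2 marks the initiation factor eIF2, translation slows, and the transcription factor ATF4 is made, whose known targets include many synthetase genes and amino acid transporters.

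The cells were eosinophils, granulocytes of type 2 immunity, grown from wild-type (WT) mouse bone marrow. The marrow was first grown out in the presence of FLT3 ligand and stem cell factor, then kept in IL-5 (20 ng/mL), which drives the eosinophil lineage, and used on day 14 once dead cells had been removed. IL-33, a cytokine released by damaged barrier cells, was given at 2.5 ng/mL for 3 hours to the cells of 3 libraries, and the cells of the other 3 received phosphate-buffered saline (PBS), the vehicle. The labels name neither the strain, age and number of mice nor the cultures behind each library, so a p-value measures the spread of these libraries alone, and that spread may be technical.

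RNA was sequenced after ribosomal RNA had been depleted, and the libraries held between 8218303 and 10785521 reads. The ribosomal RNA precursor, counted as Rn45s, took 13.7% to 24.8% of the reads in the PBS libraries. It took 24.3% in IL-33 replicate 1 but 59.6% and 54.8% in replicates 2 and 3, which left 4229504 to 7129435 reads per library for all other genes. Eosinophil markers were present in every library, though their summed normalized count was lower after IL-33 (24617 to 35154) than after PBS (52876 to 63914), and 9 of the 11 markers fell while Gata1 rose. The 8 markers of macrophages and monocytes summed to 4565 to 5152 after IL-33 and 2242 to 2456 after PBS, and 1 of the 3 that could be tested passed, Csf1r, higher. Csf1r had 3980 to 4934 after IL-33 and 1461 to 1732 after PBS, and the monocyte gene Ly6c2 had 190 to 612 and 607 to 772. Mrc1 reached at most 22.5 in any library, the complement genes C1qa, C1qb and C1qc at most 13.6, and Marco was at 0. The neutrophil markers summed to 2190 to 2602 after IL-33 and 2215 to 2807 after PBS, with Mpo and Ctsg called lower. Those of mast cells and basophils summed to 131 to 356 after IL-33 and 187 to 476 after PBS, with Cpa3 and Ms4a2 called lower. The defining erythroid genes Hba-a1, Hba-a2 and Hbb-b1 were at 0 in all libraries. In bulk RNA, fewer cells of a type and less RNA per cell cannot be told apart, and the part of these shifts in the synthetase values was not tested.

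After IL-33 the synthetase genes did not move as a block. Among the 20 cytosolic genes, Vars and Rars rose, Farsb, Wars, Sars, Kars and Qars fell, and 13 did not pass the test. Among the 16 mitochondrial genes, Ears2 and Yars2 rose, Iars2 and Cars2 fell, and 12 did not pass. A gene was called changed at a limma adjusted p under 0.05 (Benjamini-Hochberg over all 10544 genes tested). The 7 of 20 cytosolic genes (35%) and the 4 of 16 mitochondrial genes (25%) stand beside 31.9% of all genes tested. In all, 4 of the 36 rose and 7 fell, beside 17.4% of all genes that rose and 14.4% that fell. These shares lie near the background, so they are not a result about synthetases as a group.

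The median log2 fold change (IL-33 minus PBS, on the scale of log2 of the normalized count plus 1) was -0.28 over the cytosolic genes and -0.11 over the mitochondrial genes, beside -0.03 over all genes tested. The values of the groups did not overlap for 10 of the 20 cytosolic genes, 2 of them higher and 8 lower after IL-33. They did not overlap for 7 of the 16 mitochondrial genes, 3 higher and 4 lower. Over all genes tested, 50.2% did not overlap.

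**Figure D1:**
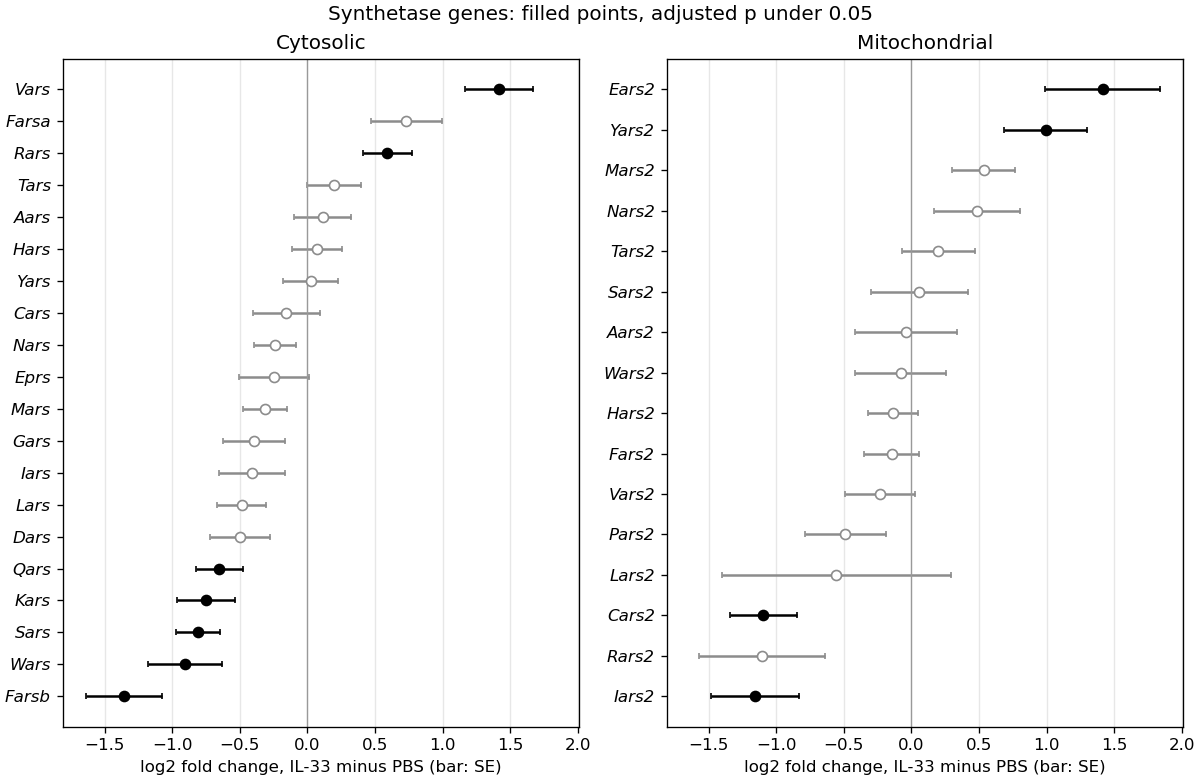
Log2 fold change of each synthetase gene (IL-33 minus PBS), cytosolic on the left and mitochondrial on the right, with bars of 1 standard error (SE) and filled points for a limma adjusted p under 0.05. Vars and Ears2 lie highest in their compartments at 1.42 each, and Farsb (-1.35) and Iars2 (-1.15) lie lowest.

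Levels of different genes were compared only per kilobase of annotated coding-transcript exons. In the PBS libraries the cytosolic genes ranged from 21.9 ± 3.92 normalized counts per kilobase for Iars to 308 ± 21.0 for Nars, the asparagine enzyme (SD, n = 3). Farsa at 254 ± 34.1 and Gars at 237 ± 22.3 came next, and their difference was within 1 SD. Vars stood 12th in that order after PBS, at 72.0 ± 9.85, and 3rd after IL-33, at 198 ± 56.5. Farsb, a subunit of the same enzyme as Farsa, stood 19th after PBS and 20th, the last place, after IL-33.

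The mitochondrial genes spanned a lower range that overlapped the cytosolic one. After PBS it ran from 3.41 ± 0.379 for Mars2 to 73.7 ± 7.67 for Fars2, the phenylalanine enzyme, and Hars2 followed at 52.0 ± 1.90. Yars2 stood 13th after PBS, at 7.42 ± 1.82, and 6th after IL-33, at 15.1 ± 3.70. The annotated exons of Mars2 add up to 11294 bases, so its level per kilobase depends on how much of that length is transcribed.

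Vars, which encodes the valine enzyme, a partner of the elongation factor eEF1 (chromosome 17, 35000987 to 35016322, plus strand, GRCm38), had the largest cytosolic rise. Its normalized counts were 552, 904 and 995 after IL-33 (replicates 1, 2 and 3, the order used throughout) and 336, 302 and 255 after PBS. Every IL-33 library lay above every PBS library, and replicate 1 was the lowest of the treated libraries. The mean went from 298 ± 40.7 to 817 ± 234 (SD, n = 3 each), a log2 fold change of 1.42 (SE 0.25, limma adjusted p = 0.00563), or 2.67-fold. With every library scaled to the same total over all genes, which lets the large Rn45s share push all other genes down, the log2 fold change was 0.38 and Vars was not called (limma adjusted p = 0.24). With equal totals outside Rn45s it was 0.99, and Vars was called higher (limma adjusted p = 0.0116).

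Rars, the arginine enzyme (chromosome 11, 35808381 to 35834506, minus strand), also rose. Its values were 312, 305 and 383 after IL-33 and 229, 229.9 and 201 after PBS. The groups did not overlap, and the log2 fold change was 0.59 (SE 0.18, limma adjusted p = 0.0375). With equal totals over all genes its log2 fold change was -0.45 (limma adjusted p = 0.26). With equal totals outside Rn45s it was 0.17 (limma adjusted p = 0.434), so Rars was called on neither of these scales.

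The phenylalanine enzyme of the cytosol is built from alpha subunits encoded by Farsa and beta subunits encoded by Farsb, and the values of these partners moved apart. Farsb (chromosome 1, 78417975 to 78488897, minus strand) had 26.1, 23.1 and 15.3 after IL-33 and 53.6, 57.5 and 54.5 after PBS. All 3 treated libraries were under the lowest PBS library by more than a factor of 2, and the PBS libraries were close together. It fell by 1.35 on the log2 scale (SE 0.28, limma adjusted p = 0.0104).

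Farsa (chromosome 8, 84856989 to 84869257, plus strand) did not pass the test. Its values were 512, 894 and 986 after IL-33 and 529.6, 455 and 406 after PBS, so replicate 1 lay among the PBS libraries and replicates 2 and 3 above them all. The log2 fold change was 0.73 (SE 0.26, limma adjusted p = 0.0629). Its reads before scaling were alike in all libraries, 569, 581 and 582 after IL-33 and 682, 626 and 581 after PBS, while replicates 2 and 3 of the treated group held fewer reads outside Rn45s (4355586 and 4229504) than the other libraries (at least 6592044).

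The ratio of Farsa to Farsb within a library does not depend on any scaling. It was 19.6, 38.7 and 64.7 after IL-33 and 9.88, 7.92 and 7.45 after PBS. The lowest treated ratio was above the highest vehicle ratio, and the mean log2 ratio was higher by 2.13, which is 4.38-fold. An exact permutation test gave p = 0.1 (two-sided, 3 against 3), the smallest value that this number of libraries allows, and 0.155 after Benjamini-Hochberg adjustment over 17 ratios. Farsb reads in IL-33 replicate 3 numbered 9, and 11.3% of the exonic bases of Farsb overlap Sgpp2 on the opposite strand. Whether counting used strand is not given in the sources used here, so reads of overlapping genes cannot be told apart.

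**Figure D2:**
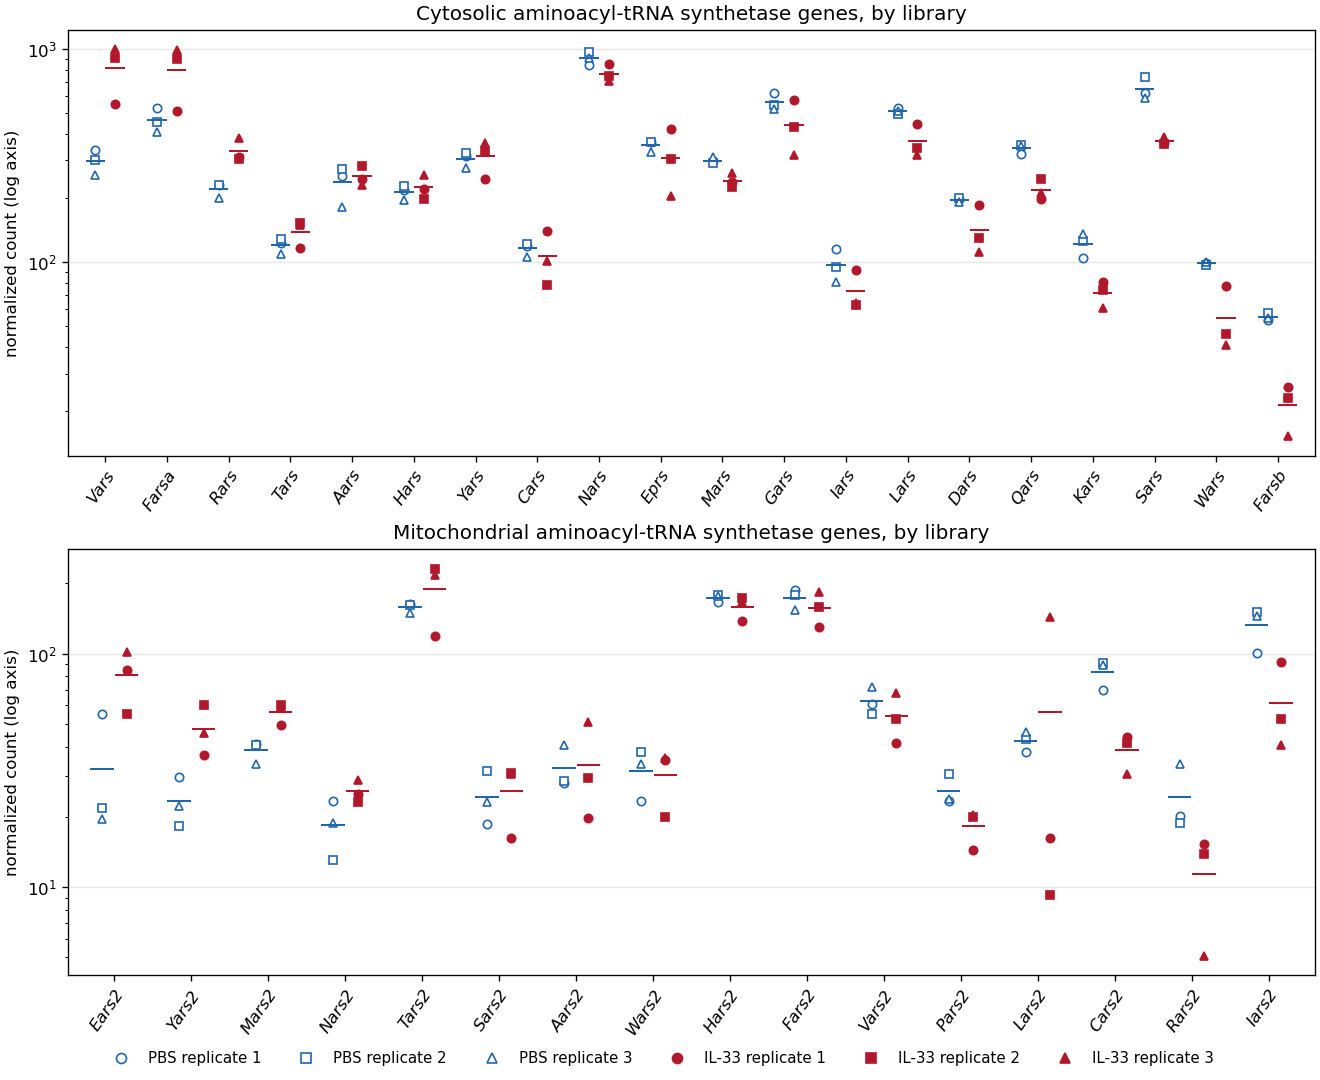
Normalized count of each synthetase gene in each library on a log axis, cytosolic in the upper panel and mitochondrial in the lower, ordered by log2 fold change. Open blue symbols are PBS, filled red symbols IL-33, and horizontal bars are group means. Vars and Farsb separate by treatment with no overlap, Farsa overlaps at IL-33 replicate 1, and Lars2 has a single high library, IL-33 replicate 3 at 144.

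Sars, Wars, Kars and Qars were the other cytosolic genes that fell. Sars, whose product charges the serine tRNAs and the selenocysteine tRNA (chromosome 3, 108424865 to 108445209, minus strand), had 362, 357 and 388 after IL-33 and 622, 737 and 589.9 after PBS. Its treated libraries were close together, and all lay well under the PBS range. It fell by 0.81 on the log2 scale (SE 0.16, limma adjusted p = 0.00985).

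Wars, the tryptophan enzyme, which is known as a target of interferon gamma (chromosome 12, 108860030 to 108894174, minus strand), had 77.3, 46.1 and 40.7 after IL-33 and 99.4, 97.5 and 101 after PBS. Replicate 1 was the treated library nearest to the tight PBS group. The log2 fold change was -0.90 (SE 0.27, limma adjusted p = 0.0381).

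Kars, the lysine enzyme (chromosome 8, 111993443 to 112011323, minus strand), had 80.9, 73.8 and 61.0 after IL-33 and 104, 126 and 135 after PBS, with a log2 fold change of -0.75 (SE 0.22, limma adjusted p = 0.0321). Qars, the glutamine enzyme (chromosome 9, 108507706 to 108515941, plus strand), had 198, 246 and 212 after IL-33 and 322, 356 and 350.1 after PBS, with a log2 fold change of -0.65 (SE 0.17, limma adjusted p = 0.0246). Neither gene overlapped between groups.

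Kars, Qars and Rars belong to the multisynthetase complex together with Dars, Eprs, Iars, Lars and Mars. Of these 8 genes, 7 had a negative log2 fold change and Rars alone a positive one, and the median was -0.45. Among all 10544 genes tested, 5441 were negative. In log2, IL-33 replicate 1 against the PBS mean stood at 0.25 for Eprs, -0.06 for Iars, -0.09 for Dars and -0.20 for Lars. It stood at -0.34 for Mars, -0.57 for Kars, -0.79 for Qars and 0.51 for Rars. In 5 of the 7 the groups did not overlap, and Rars did not overlap either, beside 50.2% of all genes tested. The test was passed by 3 of the 8, beside 31.9%. Lars, the leucine enzyme and a known leucine sensor for mTORC1, came nearest, with a log2 fold change of -0.49 and a limma adjusted p of 0.0711. Dars had -0.50 with 0.12, and Eprs, the joint enzyme of glutamate and proline, had -0.25 with 0.481. The 12 cytosolic genes outside the complex had a median of -0.07, and whether the complex differed from them was not tested.

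The scaffold genes of the complex did not pass the limma test. Aimp1 had a log2 fold change of -0.36, Aimp2 0.35 and Eef1e1 -0.15. None of the 3 had an unadjusted p under 0.05, and edgeR and DESeq2 called 0 as well.

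The remaining cytosolic genes, Aars, Cars, Gars, Hars, Nars, Tars and Yars with Dars, Eprs, Iars, Lars and Mars, had log2 fold changes between -0.50 and 0.20. Nars, the highest per kilobase after PBS and 2nd to Farsa after IL-33, had 847, 746 and 705 after IL-33 and 841, 964 and 902 after PBS, and the groups overlapped. Gars, the glycine enzyme, had 573 in IL-33 replicate 1, within the PBS range of 523 to 624, and 429 and 319 in the others.

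In mitochondria, Ears2 and Yars2 rose. Ears2 encodes the glutamate enzyme, which also places glutamate on the glutamine tRNA, to be amidated there (chromosome 7, 122037213 to 122067263, minus strand). Its values were 85.4, 55.4 and 102 after IL-33 and 55.1, 21.8 and 19.6 after PBS. The lowest treated library was only just above the highest PBS library, replicate 1. The mean went from 32.2 ± 19.9 to 80.8 ± 23.5 (SD, n = 3 each), a log2 fold change of 1.42 (SE 0.42, limma adjusted p = 0.0364). Ears2 was not called with equal totals over all genes (0.40, limma adjusted p = 0.504) or outside Rn45s (1.00, adjusted p = 0.0809).

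Yars2, the tyrosine enzyme (chromosome 16, 16302965 to 16309640, plus strand), had 36.9, 60.0 and 45.8 after IL-33 and 29.5, 18.2 and 22.4 after PBS. The groups did not overlap, and the log2 fold change was 0.99 (SE 0.31, limma adjusted p = 0.0397), although it was -0.02 with equal totals over all genes and 0.58 with equal totals outside Rn45s (limma adjusted p = 0.146). Mars2, which supplies the methionine tRNA used to start mitochondrial proteins, had 49.5, 60.0 and 59.3 after IL-33 and 41.2, 40.7 and 33.5 after PBS. Its groups did not overlap either, but its log2 fold change of 0.54 did not pass (limma adjusted p = 0.109) and was -0.48 at the same total over all genes.

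Iars2 and Cars2 fell. Iars2, the isoleucine enzyme (chromosome 1, 185284726 to 185329396, minus strand), had 91.7, 52.3 and 40.7 after IL-33 and 101, 151 and 145 after PBS. IL-33 replicate 1 and PBS replicate 1 lay near each other between the rest. The log2 fold change was -1.15 (SE 0.33, limma adjusted p = 0.0305). Opposite-strand genes, Rab3gap2 among them, cover 32.2% of its exonic bases.

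Cars2, the cysteine enzyme, also known to make cysteine persulfide (chromosome 8, 11513977 to 11550783, minus strand), had 44.1, 41.5 and 30.5 after IL-33 and 69.9, 90.9 and 89.5 after PBS. The groups were well apart, and the log2 fold change was -1.10 (SE 0.25, limma adjusted p = 0.014). Naxd on the opposite strand covers 22.2% of its exonic bases.

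Rars2, the arginine enzyme of mitochondria, had a log2 fold change as low as that of Cars2 but did not pass the test. Its values were 15.3, 13.8 and 5.08 after IL-33, the last of these from 3 reads, and 20.2, 18.9 and 33.5 after PBS. The groups did not overlap, and the log2 fold change was -1.10 (SE 0.47, limma adjusted p = 0.101).

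Lars2, the leucine enzyme of mitochondria, varied most between libraries. It had 16.2 and 9.23 in IL-33 replicates 1 and 2 and 144 in replicate 3, against 38.1, 42.9 and 46.1 after PBS. A single treated library was above the PBS range and the other two were below it. The log2 fold change was -0.55 with an SE of 0.85 (limma adjusted p = 0.626). Without IL-33 replicate 3 it was -1.71 (limma adjusted p = 0.0109), and without IL-33 replicate 2 it was 0.21, so no direction can be given for Lars2.

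The other mitochondrial genes, Aars2, Fars2, Hars2, Nars2, Pars2, Sars2, Tars2, Vars2 and Wars2, had log2 fold changes between -0.49 and 0.49 and did not pass. By the structural class of the enzyme, 4 of 9 mitochondrial class I genes were called, and limma, edgeR and DESeq2 each called 0 of the 7 class II genes, none of which had an unadjusted p under 0.05. In the cytosol, 4 of 9 class I and 3 of 10 class II genes were called, with Eprs, which holds a domain of each class, left out of both counts. These counts stand beside 31.9% of all genes tested, and a difference between the classes was not tested.

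Ratios between the cytosolic and the mitochondrial gene for the same amino acid again do not depend on scaling. Of 16 such ratios, 10 did not overlap between groups. The same count was not made for ratios of other gene pairs, and 50.2% of all single genes tested did not overlap. The ratio of Vars to Vars2 was 13.3, 17.3 and 14.7 after IL-33 and 5.55, 5.46 and 3.54 after PBS, higher by 1.66 on the log2 scale. That of Yars to Yars2 was 6.66, 5.56 and 7.89 after IL-33 and 10.6, 17.9 and 12.4 after PBS, lower by 1.00.

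Eprs against Ears2 had a ratio of 4.91, 5.50 and 2.02 after IL-33 and 6.65, 16.7 and 16.7 after PBS. Rars against Rars2 had 20.4, 22.0 and 75.3 after IL-33 and 11.3, 12.2 and 5.98 after PBS, with the 75.3 resting on the 3 reads of Rars2. Each of these 4 ratios had an exact permutation p = 0.1 (two-sided, the smallest possible) and 0.155 after adjustment over the 17 ratios. Tars against Tars2 differed by 0.00 in the mean log2 ratio.

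**Figure D3:**
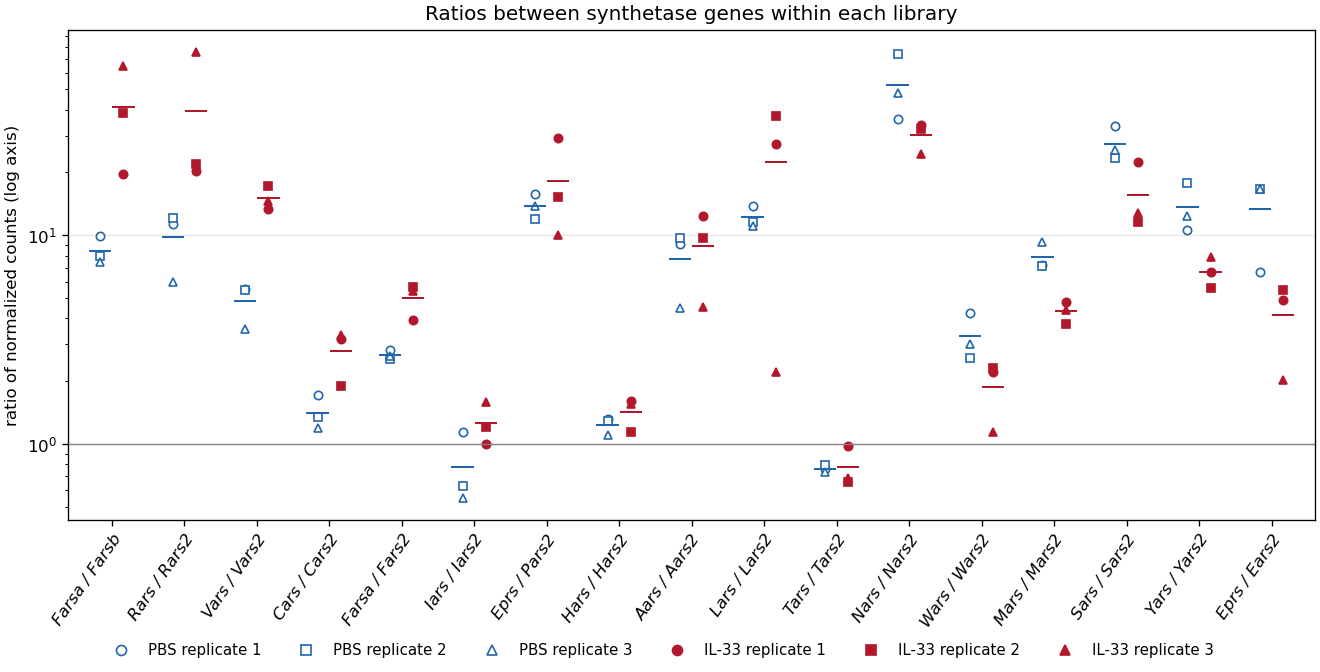
Ratio of normalized counts of paired synthetase genes within each library, on a log axis, for Farsa over Farsb and for 16 pairs of a cytosolic gene over the mitochondrial gene of the same amino acid. Open blue symbols are PBS, filled red symbols IL-33, and bars are group means. The Farsa over Farsb ratio lies between 7.45 and 9.88 after PBS and between 19.6 and 64.7 after IL-33.

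As a share of all cytosolic synthetase counts in a library, Vars made up 9.38%, 14.7% and 16.1% after IL-33 and 5.34%, 4.72% and 4.39% after PBS. Farsa made up 8.69%, 14.6% and 16.0% after IL-33 and 8.42%, 7.12% and 6.99% after PBS, and on this scale its groups did not overlap, though by a narrow gap at replicate 1 of each. Sars went the other way, with 6.16%, 5.82% and 6.29% after IL-33 against 9.88%, 11.5% and 10.2%. In the cytosol the shares of 10 of 20 genes did not overlap, 3 higher and 7 lower, and in mitochondria those of 6 of 16, 4 higher and 2 lower. Shares within other gene sets were not taken. The normalized counts of 50.2% of all genes tested did not overlap, so these counts are not a result about synthetases.

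The summed normalized counts of the 20 cytosolic genes overlapped, with 5884, 6135 and 6166 after IL-33 and 6293, 6396 and 5809 after PBS. Per 1000000 reads outside Rn45s, the same genes had 918, 916 and 860 after IL-33 and 1229, 1275 and 1172 after PBS, with no overlap. On that scale the mitochondrial genes had 137, 154 and 171 after IL-33 and 205, 219 and 218 after PBS. Which of the scales reflects the amount of synthetase mRNA in a cell cannot be told from relative counts.

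The choice of scale moved all genes together. With equal totals over all genes the median of all genes tested was -1.08 (log2 fold change), and with equal totals outside Rn45s it was -0.46. Relative to these medians, Vars stood at 1.46 and 1.45, Ears2 at 1.48 and 1.46, and Rars at 0.64 and 0.63. Farsb stood at -1.28 and -1.30, Sars at -0.77 and -0.77, and Cars2 at -1.04 and -1.05. Their place relative to other genes was nearly the same as on the deposited scale, where the median was -0.03. Each scaling multiplies a library by 1 factor and moves nearly all genes alike. This likeness was therefore fixed in advance and does not test the changes.

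The IL-33 libraries themselves differed. For 7 of the 11 called genes, replicate 1, whose Rn45s share was like that of the PBS libraries, was the treated library nearest to the PBS mean, as it was for 20 of all 36. That count was not made over all genes, and a link to the Rn45s share was not tested. With replicate 1 as the only treated library, Vars, Rars, Qars, Sars, Farsb, Ears2 and Cars2 were still called in the same direction by limma, with a log2 fold change of 0.90 for Vars and -1.05 for Farsb. Kars, Wars, Iars2 and Yars2 were not called there. The lone treated library is assumed to vary like the PBS libraries in that fit.

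Each library was left out in turn, which also changed how many of all genes passed. Vars passed in all 6 fits, with log2 fold changes from 1.25 to 1.68 and a limma adjusted p of at most 0.0376. Sars was lost only without PBS replicate 2 (adjusted p = 0.0646). Farsb and Cars2 were lost without PBS replicate 2 or PBS replicate 3, with an adjusted p of at most 0.0589 and 0.0812. Qars was lost without any of the PBS libraries (at most 0.114). Fewer of all genes passed with a PBS library missing. For replicate 1 it was 1108 higher and 595 lower, against 1837 and 1522 with all libraries. For replicates 2 and 3 the counts were 782 and 357, then 695 and 318. These losses therefore do not show that a gene rests on that library. Log2 fold changes over the 6 fits ran from -0.87 to -0.71 for Sars and -1.51 to -1.14 for Farsb. They ran from -1.22 to -0.94 for Cars2 and -0.74 to -0.58 for Qars.

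Ears2 passed only when replicate 1 of either group was left out, and its adjusted p reached 0.143 in the other fits. Rars, Kars, Wars, Iars2 and Yars2 passed only without IL-33 replicate 1, and reached an adjusted p of 0.161, 0.147, 0.133, 0.124 and 0.151. Dropping IL-33 replicate 2 also lowered the calls over all genes, to 874 higher and 749 lower. Dropping replicate 3 gave 1396 and 1196. None of the 11 changed direction in these 6 fits. Without IL-33 replicate 1, 10 cytosolic genes were called lower and 3 higher, Farsa among them with a log2 fold change of 1.02 (limma adjusted p = 0.000238). Of all 10386 genes tested in that fit, 2950 were lower and 2910 higher, against 1522 and 1837 of 10544 with all libraries. DESeq2 on the recovered reads of all 6 libraries also called Farsa, with 0.79 (adjusted p = 0.0259).

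Genes that sense uncharged tRNA or control eIF2 changed in both directions. Of the 10 tested, Ppp1r15a, Gcn1l1, Atf4 and Ppp1r15b rose, Eif2ak4 and Eif2ak1 fell, and the median log2 fold change was -0.09. Eif2ak4, which encodes GCN2, the kinase that binds uncharged tRNA, had 90.8, 66.1 and 76.3 after IL-33 and 196, 215 and 246 after PBS. The groups were far apart, and it fell by 1.49 on the log2 scale (SE 0.21, limma adjusted p = 0.00214).

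Gcn1l1, the older symbol of the gene for GCN1, which GCN2 needs on stalled ribosomes, had 1562, 1942 and 2439 after IL-33 and 1178, 1018 and 983 after PBS, with a log2 fold change of 0.88 (limma adjusted p = 0.0134). Ppp1r15a, a phosphatase subunit that removes the mark from eIF2, had 1057, 964 and 927 after IL-33 and 519, 330.3 and 344 after PBS, with 1.33 (limma adjusted p = 0.00351). Neither overlapped between groups.

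Atf4 mRNA had 2670.3, 1901 and 1691 after IL-33 and 1564, 1238 and 1085 after PBS, with a log2 fold change of 0.68 (SE 0.22, limma adjusted p = 0.0482). ATF4 is controlled mainly at translation, which these data do not measure. Eif2ak1, the haem-regulated eIF2 kinase, had a log2 fold change of -0.73 (limma adjusted p = 0.0171). With libraries scaled to equal totals over all genes, limma called 4 genes of this list, all of them lower. That count belongs to that fit, and its genes need not be the 4 named above as rising.

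**Figure D4:**
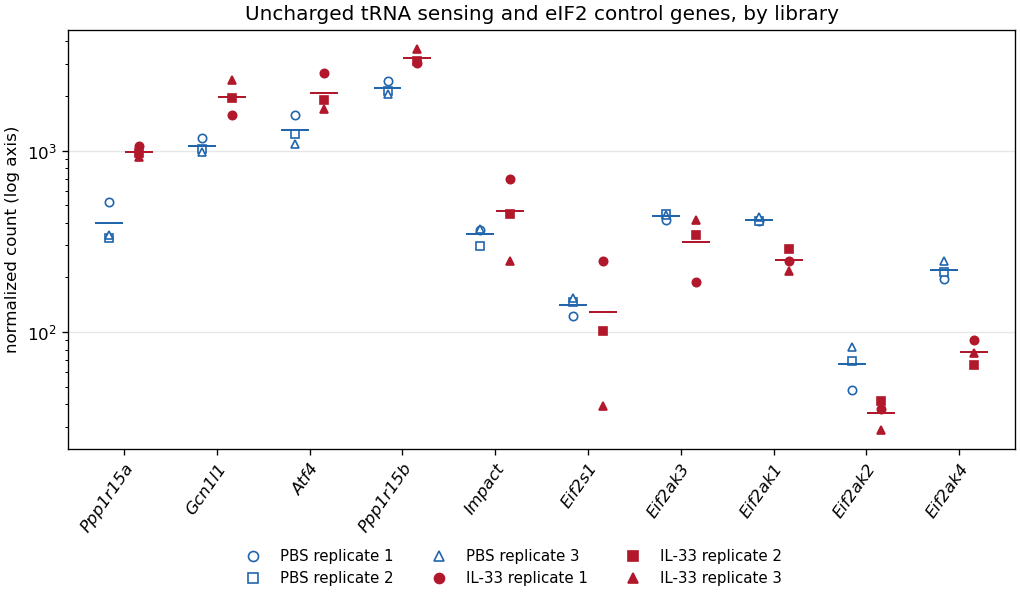
Normalized count of the 10 tested genes of uncharged tRNA sensing and eIF2 control in each library on a log axis, ordered by log2 fold change. Open blue symbols are PBS, filled red symbols IL-33, and bars are group means. Ppp1r15a lies higher in all 3 IL-33 libraries (927 to 1057) than in PBS (330.3 to 519), and Eif2ak4 lower (66.1 to 90.8 against 196 to 246).

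Of 28 tested genes of the list of ATF4 targets and amino acid supply, 11 rose, 1 fell and 16 did not pass, with a median log2 fold change of 0.35. Over all genes tested 17.4% rose and 14.4% fell. With equal totals over all genes 2 of the 28 were higher and 7 lower, and with equal totals outside Rn45s 6 and 3. Without IL-33 replicate 2, PBS replicate 1, PBS replicate 2 or PBS replicate 3 the number higher was 4, 6, 5 and 4. The 4 with the largest rise were Cebpb, a C/EBP transcription factor (2.75, limma adjusted p = 0.000794), Slc1a4, a neutral amino acid carrier (2.41, 0.0156), Ddit4, an mTORC1 inhibitor (1.91, 0.00195), and Trib3, a pseudokinase (1.45, 0.0113). Psat1, of serine synthesis, fell by 1.05 (limma adjusted p = 0.0433). Asns, the asparagine synthetase gene that amino acid shortage induces, had 0.10, and Chac1 and Ddit3 had 0.05 and -0.38. Slc1a4 was low, at 18.6 to 25.2 after IL-33 and 1.46 to 8.54 after PBS.

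Among 12 tested mitochondrial translation factors, Tufm, the factor that carries charged tRNA to the mitochondrial ribosome, rose by 0.77 (limma adjusted p = 0.0336). Mtif2, the initiation factor, had a log2 fold change of -1.33 (limma adjusted p = 0.0132). Qrsl1, Gatc and Pet112 (the older symbol of Gatb), which together amidate the tRNA that Ears2 loads with glutamate, had -0.53, -0.18 and -0.74, and none of them passed.

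Limma called 0 of 5 genes of the cytosolic elongation factors and 0 of 6 for tRNA editing and export. The first list had 1 gene at an unadjusted p under 0.05, Eef1g at 0.51, and edgeR and DESeq2 called 0. The second also had 1, Aarsd1, an editing protein for alanine tRNA, at -1.82 (limma adjusted p = 0.0551), and edgeR and DESeq2 each called 1 gene lower. Of 8 tested genes of MYC and its partners, Mlxip rose by 0.61 (limma adjusted p = 0.0231) and 7 did not pass. Myc itself, at 1.54 to 10.8, was under the level set for testing.

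Promoter sequences from RefSeq (GRCm38.p6) were found for 27 of the 36 genes, Mars through its newer symbol Mars1. The element that C/EBP and ATF4 bind as a pair was searched as TGATGNAA on both strands in the 250 bases before the start site. It was present for 3 of the 27 genes (11.1%), Gars and Tars among them, and for 1056 of 27025 genes in all (3.91%). The stretches around it in Gars and Tars are shown as examples, with the element in capitals and the gene's own strand read 5′ to 3′.
Gars, chr6:55037960-55037989, plus strand: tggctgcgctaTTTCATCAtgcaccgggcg
Tars, chr15:11399659-11399684, minus strand: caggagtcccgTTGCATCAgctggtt

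The element begins 30 bases before the RefSeq start of Gars and 15 before that of Tars, in the reverse direction in both. The log2 fold changes of these genes were -0.39 and 0.20, and neither passed the limma test. Of 27 genes of the ATF4 list with a promoter sequence, 7 (25.9%) held the element, and of the 11 that rose, 1 did, Atf3. A match is a description of letters and not of binding.

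Other motifs were searched in the same windows on both strands. CACGTG, the E-box of MYC, was present for Aars, Farsb and Iars, 11.1% of the 27 against 6.86% of all genes, and GCATGCGC, bound by NRF1, for Rars2, Vars2 and Wars2, 11.1% against 2.56%. CCGGAAG, an ETS core, was present for 7 genes (25.9% against 7.83%), Cars2 and Sars among them. A loose form of the NF-kB site was present for 17 (63.0% against 48.7%). The shares of all genes are over 27025 genes with a promoter sequence, expressed or not. They were not taken over the 10544 genes tested, so they do not show a trait of synthetase genes. Of the called genes, Farsb held the E-box, Cars2 and Sars the ETS core, and Cars2, Ears2, Iars2, Kars and Qars the loose NF-kB form. Among these Ears2 alone rose, and no called gene held the NRF1 site. The other members with these motifs did not pass the test. Vars, Rars and Wars had no promoter sequence and so were not searched.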

How the data were processed

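The values the authors deposited are a signal, gene counts divided by 1 factor per library. The tools named in the submitters' processing notes are HISAT2, HTSeq and DESeq2, with the mm10 build. Versions, annotation and strand setting were not given in the sources used here. All 6 columns had a sample. Values were whole multiples of each library's smallest value, so reads were recovered (100% of values whole within 0.1 read), and duplicate libraries were checked for and not found.

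Genes with at least 10 in at least 3 libraries (10544) entered the limma 3.58.1 test (R 4.3.3, lmFit and eBayes with a trend) on log2(normalized count + 1), two-sided, with Benjamini-Hochberg adjustment over all of them. A log2 fold change on this scale understates the change of low genes. Alternatives were edgeR 4.0.16, DESeq2 1.42.0, other pseudocounts, filters and scalings, a replicate block and leaving out each library. The scripts were tested on simulated counts.

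Members given with every library's value are those called whose groups do not overlap and the 3 highest and 3 lowest fold changes of each compartment; Nars, Gars and Lars2 were added after their values were seen. Of each companion list, up to 4 called genes per direction, or with fewer than 2 called the 2 of smallest p, were to be named; others named were chosen after seeing their values. Members, lists and tests were chosen with earlier results of these data known. The promoter stretch of 1 further member is not reported here. Gene spans and lengths are from GENCODE vM21 (GRCm38), 1-based. Without molecular identifiers, reads do not count independent molecules.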

Additional observations from a re-analysis of the deposited data

How the results depend on the processing

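Pseudocounts of 0.5 and 5, TMM scaling and edgeR left the counts of called synthetase genes at 2 higher and 5 lower in the cytosol and 2 and 2 in mitochondria. With equal totals they were 0 and 16, and 0 and 8 (all genes 257 higher and 5470 lower, against 1837 and 1522), so 4.49% of calls were higher instead of 54.7%. With equal totals outside Rn45s they were 1 and 11, and 0 and 6 (all genes 941 and 3595, 20.7% higher). DESeq2 called 3 higher in the cytosol. Without a filter, 3 cytosolic genes were lower and 1 mitochondrial gene higher, and with a filter at 50, 1 mitochondrial gene was higher. Without a mean-variance trend 1 cytosolic gene was higher. With IL-33 replicate 1 as the only treated library 3 cytosolic genes were lower and 1 mitochondrial gene higher. Apart from scaling and filters, the cause was not tested.

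Replicate numbers are shared between groups, but same-numbered libraries did not deviate together (correlations 0.046, 0.242 and -0.164). With the replicate block, 1 cytosolic gene was higher and 3 lower and 1 mitochondrial gene higher; Kars, Rars, Wars and Yars2 were no longer called.

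Leaving out 1 library gave 1 to 3 cytosolic genes higher and 0 to 10 lower, 0 to 3 mitochondrial genes higher and 0 to 3 lower, and 695 to 2910 genes higher and 318 to 2950 lower in all. The lowest came without PBS replicate 3 or 2 and the highest without IL-33 replicate 1. Log2 fold changes that crossed 0 in these fits belonged to uncalled genes and ranged from -0.066 to 0.23 for Aars, -0.37 to 0.044 for Cars, -0.49 to 0.019 for Eprs, -0.034 to 0.16 for Hars, -0.088 to 0.19 for Yars, -0.39 to 0.27 for Aars2, -1.71 to 0.21 for Lars2, -0.11 to 0.35 for Sars2 and -0.28 to 0.19 for Wars2.

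With equal totals the sign turned for Aars (-0.93), Farsa (-0.31), Hars (-0.97), Rars (-0.45), Tars (-0.83), Yars (-1.02), Mars2 (-0.48), Nars2 (-0.51), Sars2 (-0.95), Tars2 (-0.84) and Yars2 (-0.016). With equal totals outside Rn45s it turned for Aars (-0.31), Hars (-0.35), Tars (-0.22), Yars (-0.40), Sars2 (-0.35) and Tars2 (-0.22). With IL-33 replicate 1 alone it turned for Cars (0.27), Eprs (0.25), Gars (0.026), Tars (-0.051), Yars (-0.31), Sars2 (-0.53), Tars2 (-0.41) and Wars2 (0.18). DESeq2 gave 0.013 for Aars2 and 0.41 for Lars2, and edgeR 0.32 for Lars2. The list of ATF4 targets had 2 to 13 genes higher and 0 to 7 lower over all alternatives, against 11 and 1, and the list of uncharged tRNA sensing 0 to 6 and 1 to 4, against 4 and 2. Depth limits the low mitochondrial genes, of which Rars2 had 3 reads in 1 library.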
